A study of Mus musculus with 7 samples.

Results

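The S100 family of calcium-binding proteins was followed here through 8 member genes, *S100a1*, *S100a4*, *S100a6*, *S100a8*, *S100a9*, *S100a10*, *S100a11* and *S100a13*, taken by symbol from the 25033 genes that the count tables list. All 8 had enough reads to be tested, among 11265 genes tested in all. The cells were lineage-depleted (lin-) bone marrow cells, that is, marrow from femur and tibia after red cell lysis and removal of cells bearing markers of mature blood lineages with a hematopoietic progenitor isolation kit. They came as 7 samples from mice aged 6 to 8 weeks on a C57BL/6N background, 3 *HRP-2* wild type (Hrp2+/+) and 4 *HRP-2* knockout (Hrp2-/-), the latter homozygous for the systemic C57BL/6N-Hdgfrp2<tm1b (KOMP)Wtsi>/Tcp allele (Hrp2tm1b). *HRP-2* (*Hdgfl2* in the tables) encodes an epigenetic reader of the histone mark on active gene bodies, and the comparison asked which transcripts differ in progenitor-enriched marrow without it. Each library is labelled a biological replicate and stands for 1 mouse in the study's account of these data. The libraries were made with a 3′ end kit primed by oligo-dT, which gives 1 fragment per transcript, so levels (CPM, read counts scaled to the size of the library with TMM factors) were compared between genes without division by length.

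S100 proteins are small dimers in which each chain carries a pair of EF hands, loops that bind calcium and open a face for target proteins. S100A8 and S100A9 pair with each other as calprotectin, fill the cytosol of neutrophils and monocytes, and act outside the cell as alarmins through TLR4 and the receptor RAGE. S100A4 and S100A6 regulate the cytoskeleton and cell movement and are found in many myeloid cells, S100A10 and S100A11 bind annexins at membranes, S100A13 takes part in the export of proteins that lack a signal peptide, and S100A1 is best known for calcium handling in heart and skeletal muscle.

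All 8 genes lie on chromosome 3 (GRCm38, GENCODE M21). On that annotation the first group of 6 runs over 184.7 kb and holds *S100a1* (90511034 to 90514392, minus strand), *S100a13* (90514435 to 90524581, plus), *S100a4* (90603771 to 90606045, plus), *S100a6* (90612882 to 90624181, plus), *S100a8* (90668978 to 90670035, plus) and *S100a9* (90692632 to 90695721, minus). *S100a1* and *S100a13* start head to head, 42 bases apart. *S100a11* (93520488 to 93526287, plus) and *S100a10* (93555080 to 93564643, plus) follow after a gap of 2824.8 kb. No member shared exonic bases with another gene of the count tables, but *S100a11* has a processed pseudogene (*S100a11-ps*) on chromosome 12, and how the authors counted reads that match both is not given in the sources used here.

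The members' starts differ in sequence, and the stretches below are those of the pairs with the largest differences between genotypes, *S100a8* with *S100a9* and *S100a4* with *S100a6*. They are read 5′ to 3′ on the gene's strand from the RefSeq promoter windows (GRCm38.p6), which hold 7 of the 8 members, and capitals mark the letters TATAAA, the core of a TATA box. The stretches are chr3:90603620-90603799 (plus) for *S100a4*, chr3:90612744-90612911 (plus) for *S100a6*, chr3:90669029-90669058 (plus) for *S100a8* and chr3:90695692-90695871 (minus) for *S100a9*. For *S100a8*, whose RefSeq start lies 93 bases inside the first exon of the GENCODE model, only the 30 bases around the match are shown.
S100a4: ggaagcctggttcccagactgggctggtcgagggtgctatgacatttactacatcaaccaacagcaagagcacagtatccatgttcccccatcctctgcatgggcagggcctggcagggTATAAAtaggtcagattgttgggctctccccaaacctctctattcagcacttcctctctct
S100a6: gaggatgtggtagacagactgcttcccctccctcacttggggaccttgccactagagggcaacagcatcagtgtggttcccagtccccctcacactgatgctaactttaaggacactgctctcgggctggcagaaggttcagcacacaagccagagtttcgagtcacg
S100a8: caagctttcctcTATAAAagcagctgacac
S100a9: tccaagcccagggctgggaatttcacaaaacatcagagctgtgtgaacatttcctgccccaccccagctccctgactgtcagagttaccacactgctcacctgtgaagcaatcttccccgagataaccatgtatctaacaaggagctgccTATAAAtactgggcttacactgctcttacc
TATAAA stood 31 bases before the RefSeq start of *S100a4* and 30 bases before that of *S100a8*, and at the annotated start itself in *S100a9*. It was absent from the 300-base windows (250 bases before to 50 after the start) of *S100a1*, *S100a6*, *S100a11* and *S100a13*. Over the 32851 windows of all genes, 13.6% held TATAAA on either strand, and 1.99% held it on the gene's strand between 40 and 20 bases before the start, as the windows of *S100a4* and *S100a8* did. The other 3 motifs were searched on both strands. TTGCNNAA (C/EBP type) was in 10.8% of all windows and, among the members, in that of *S100a9*, 236 bases before the start. GAGGAAGT (PU.1 type) was in 3.2% of all windows and in those of *S100a4* and *S100a8*. TGANTCA (AP-1 type) was in 7.81% of all windows and stood 136 and 38 bases before the start of *S100a11*. A match is a description of the letters and not a bound site.

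**Figure D1:**
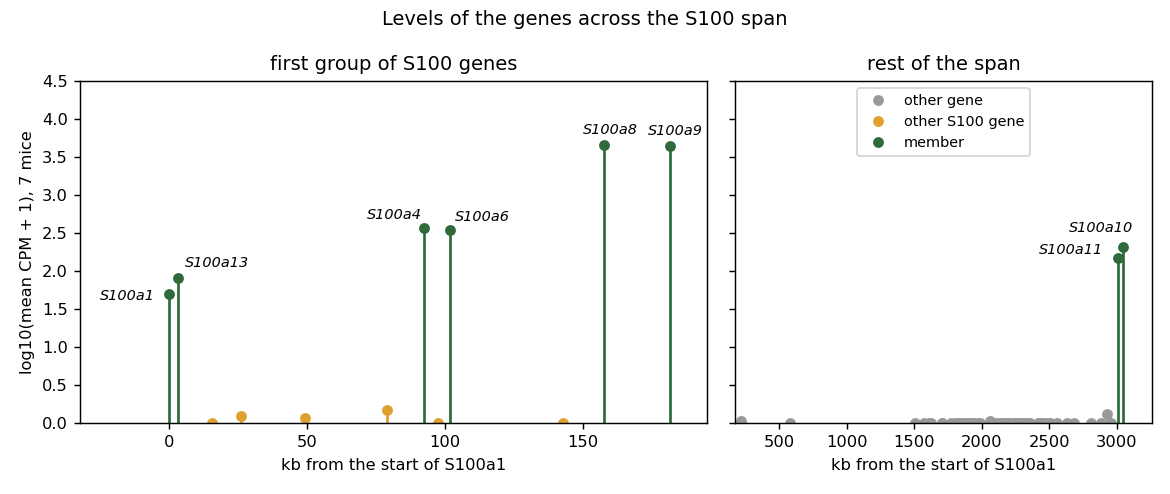
Each point is a protein-coding gene of the S100 span of chromosome 3, at the distance of its start from the start of *S100a1* (kb) and at the log10 of its mean CPM + 1 over the 7 mice, with the first group on the left and the rest of the span on the right. The 8 members (green), chosen with earlier results of these data known, stand above the other S100 genes (orange) and the other genes (grey). Genotype means were at most 0.816 CPM for the other S100 genes and under 1 CPM for the other genes.

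The members, chosen with earlier results of these data known, were the genes of that span with signal in these cells. Their standing above the other S100 genes is therefore not an independent result. Of 68 listed protein-coding genes between the first base of *S100a1* and the last of *S100a10*, 54 were not S100 genes, 51 of these had 0 reads in every library, and 0 had enough reads to be tested. The 6 other S100 genes in the span had mean levels of at most 0.816 CPM in either genotype (the plot of levels across the span gives means over all 7 mice). Over all 7 libraries *S100a2* had 14 reads, *S100a3* had 6 and *S100a16* had 7, while *S100a5*, *S100a7a* and *S100a14* had 0. Elsewhere in the genome, *S100b* had 14 reads and *S100z* had 0, and a count of 0 allows 0.561 to 0.840 CPM in a library (3 reads, counting error only). *S100g*, on the X chromosome, was the exception, with 128 reads, 4.27 ± 1.01 CPM (SD, n = 3) among wild type mice and 4.01 ± 1.14 CPM (SD, n = 4) among knockouts. Its log2 fold change was -0.081 ± 0.47 (SE, adjusted p = 0.999, edgeR's quasi-likelihood test), and 0.019 without knockout 3, described below.

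The libraries held 3525665 to 5605158 reads on genes. *Hdgfl2* averaged 46.1 ± 3.42 CPM (SD, n = 3) among wild type mice against 1.29 ± 0.938 CPM (SD, n = 4) among knockouts, and was low in each of the 4 knockout libraries (0.498 to 2.53 CPM). *Rn45s*, the ribosomal RNA precursor, took 4.94 to 20.6% of reads on genes, with the highest shares in wild type 2 and knockout 4. Knockout 3 stood apart from the other 6 mice in sex-linked transcripts, with *Xist* at 0.561 CPM against 229 to 303 and *Ddx3y* at 104 CPM against at most 0.777. For each member and list below the value without it is given too. The labels give no sex.

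Summed over the 8 members, the level was 6879, 6562 and 9262 CPM in the wild type mice and 12930.4, 8169, 18210.2 and 9786 CPM in the knockout mice. The sums overlapped, since knockout 2 lay below wild type 3. *S100a8* and *S100a9* together made up 83.9 to 90.8% of the members' reads in each library, so these sums follow that pair. The order of levels below the pair was the same at 4 places in all 7 mice, *S100a10*, *S100a11*, *S100a13* and *S100a1*, each without overlap with the next within either genotype. *S100a8* and *S100a9* traded places between mice, with *S100a8* first in wild type 1 and 3 and knockout 1 and 2, and so did *S100a4* and *S100a6*, with *S100a6* ahead in wild type 1 and 3. The members of each of these pairs did not differ in level beyond the spread between mice.

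**Figure D2:**
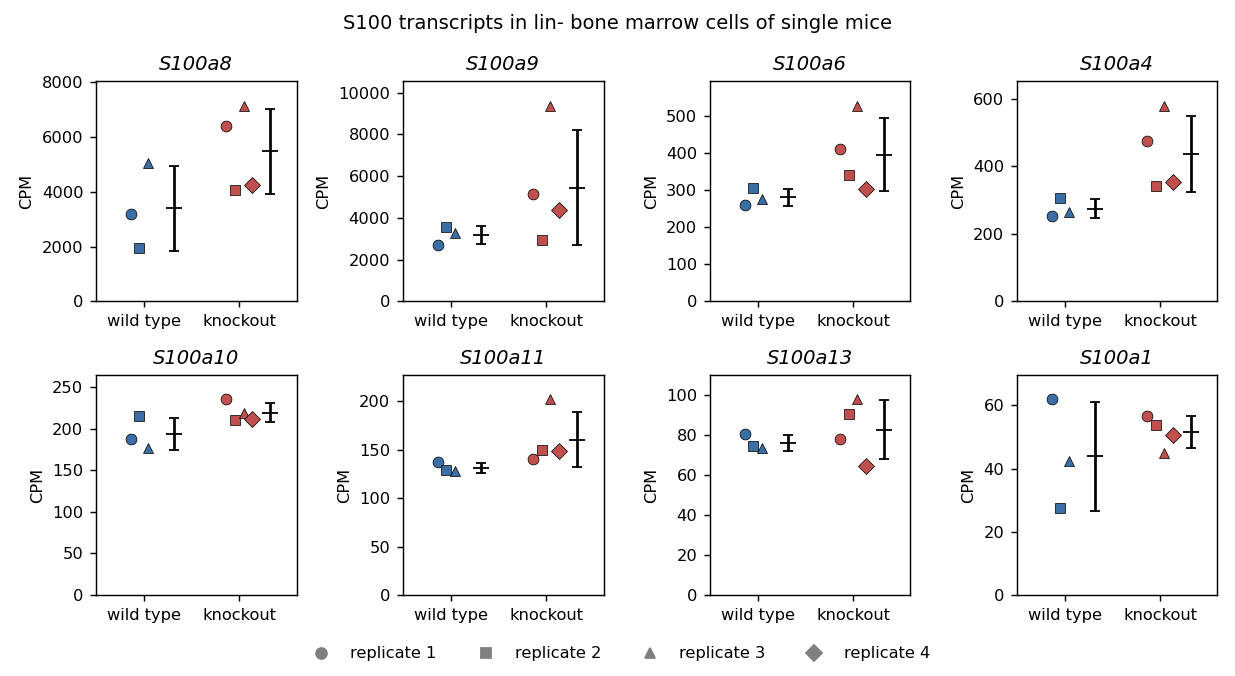
Each panel gives 1 member's level (CPM, linear axis from 0) in the 3 wild type (blue) and 4 knockout (red) mice, the symbol shape is the replicate number, and the bar is the mean ± SD. The *S100a4* and *S100a11* levels of all knockout mice lie above those of all wild type mice, and knockout 3 (triangle) is the highest mouse for 6 of the 8 genes.

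All 8 members had a higher fitted level in knockout than in wild type, by 0.12 to 0.78 on the log2 scale. The study set its threshold, an adjusted p of 0.25, with DESeq2. At that threshold 0 of 8 passed in edgeR's quasi-likelihood test (0.0178% of all genes tested passed). The median log2 fold change of the members was 0.39, against -0.0014 over all genes tested, of which 49.8% were above 0. At an unadjusted p under 0.05 in the same test, 2 of 8 members, *S100a4* and *S100a6*, were higher in knockout, where 1.56% of all genes were (3.63% in either direction). In 2 of 8 members, *S100a4* and *S100a11*, every knockout mouse was above every wild type mouse, as in 2.37% of all genes tested, while 0 of 8 lay below every wild type mouse in all knockouts, as 2.79% did (5.16% in either direction). DESeq2, the study's own test, as run here took *S100a4* past the threshold (adjusted p = 0.198), and so did edgeR's likelihood ratio test (adjusted p = 0.243). Neither took any other member past it, and of all genes 0.169% and 0.257% passed in these tests. Without the filter on low counts *S100a4* and *S100a6* passed in edgeR's quasi-likelihood test, as 0.25% of all genes did, and with DESeq2 on genes with at least 10 reads in every library *S100a4* did, as 0.212% did. Without knockout 3 the 8 members were still above 0, with a median log2 fold change of 0.31, and 0 of 8 passed in edgeR's quasi-likelihood test. Members of 1 family and 1 chromosomal cluster, measured in the same 7 mice, are not independent of each other.

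**Figure D3:**
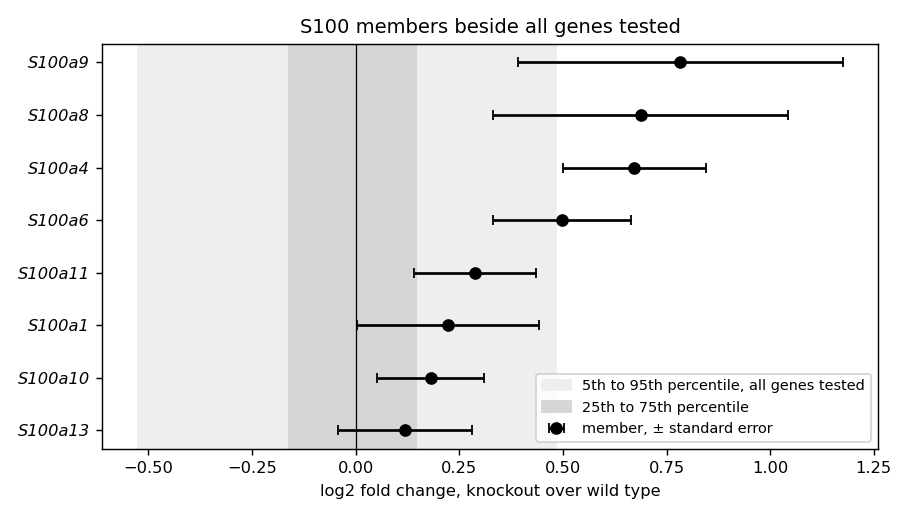
Points are the log2 fold changes of the 8 members, knockout over wild type, with bars of ± 1 standard error, and the grey bands are the 5th to 95th and 25th to 75th percentiles of all 11265 genes tested (-0.53 to 0.48 and -0.16 to 0.14). All 8 points are above 0, those of *S100a9*, *S100a8*, *S100a4* and *S100a6* lie past the 95th percentile, and the bars of *S100a8* and *S100a9* are the longest.

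The calprotectin genes were the most abundant members and, over all 7 mice, the most variable, with SDs of 0.632 (*S100a8*) and 0.619 (*S100a9*) on the log2(CPM + 1) scale. Among the wild type mice alone *S100a1* (0.572) varied more than *S100a9* (0.201). *S100a8* was at 3197, 1958 and 5039 CPM in the wild type mice and at 6406, 4066, 7152 and 4266 CPM in the knockout mice. Knockout 1 and 3 were above all wild type mice, while knockout 2 and 4 were below wild type 3, so the genotypes overlapped. The means were 3398 ± 1550.4 CPM (SD, n = 3) and 5472 ± 1541 CPM (SD, n = 4), which put *S100a8* at rank 13 of all genes by mean level in wild type and at rank 4 in knockout. The log2 fold change of 0.69 ± 0.36 (SE) was at percentile 97.8 of all genes tested, with an adjusted p of 0.999 in edgeR's quasi-likelihood test. Without wild type 2, the lowest mouse, it was 0.41, without wild type 3 it was 1.09, and without knockout 3 it was 0.53.

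*S100a9* was at 2703, 3546 and 3262 CPM in the wild type mice and at 5130.0, 2916, 9388 and 4388 CPM in the knockout mice. Knockout 2 lay within the wild type range and the other 3 knockout mice lay above it. The means were 3170.4 ± 429 CPM (SD, n = 3) and 5456 ± 2778 CPM (SD, n = 4), ranks 15 and 5 of all genes. The log2 fold change was 0.78 ± 0.39 (SE), at percentile 98.5, and the adjusted p was 0.999 in edgeR's quasi-likelihood test. Without knockout 3 the log2 fold change was 0.39. Within wild type the highest mouse had 1.31-fold the *S100a9* level of the lowest, and within knockout 3.22-fold, whereas for *S100a8* these folds were 2.57 and 1.76.

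S100A8 and S100A9 pair chain for chain, and the share of each transcript in the pair's reads was read in every mouse. *S100a8* made up 54.2%, 35.6% and 60.7% of the reads of the pair in the wild type mice and 55.5%, 58.2%, 43.2% and 49.3% in the knockout mice. With 19657 to 88517 reads of the pair in a library, the Wilson 95% intervals were narrow, from 34.9 to 36.2% in wild type 2 and from 60.2 to 61.2% in wild type 3, and they cover counting error only, not the spread between mice or libraries. The ratio of *S100a8* to *S100a9* averaged 1.093 ± 0.502 (SD, n = 3) among wild type mice and 1.094 ± 0.282 (SD, n = 4) among knockouts, so the spread between mice of 1 genotype exceeded the difference between the genotypes. The 3 libraries with the highest *Rn45s* shares, wild type 2 (20.6%), knockout 4 (18.6%) and knockout 3 (13.6%), had the 3 lowest *S100a8* shares of the pair. The part of this in the ratio was not tested.

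**Figure D4:**
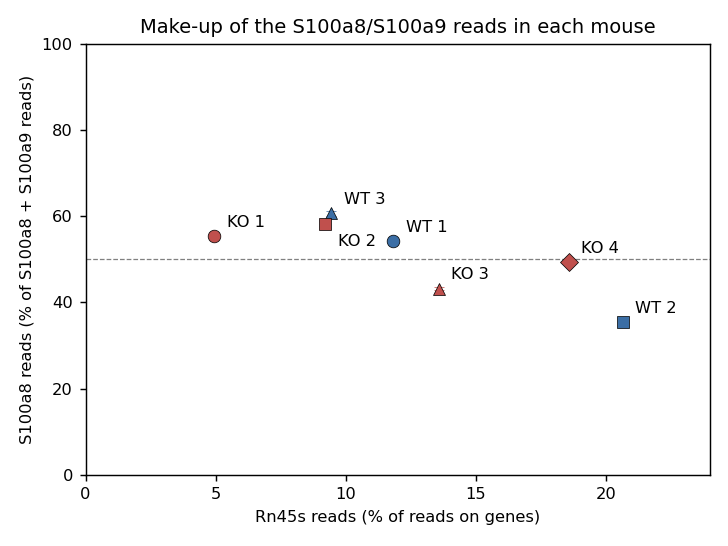
*S100a8* reads as a percentage of the *S100a8* and *S100a9* reads (vertical axis, 0 to 100%) against *Rn45s* reads as a percentage of reads on genes (horizontal axis) in each of the 7 mice, with wild type in blue, knockout in red and the dashed line at equal reads. Wild type 2, knockout 3 and knockout 4, with *Rn45s* shares of 13.6 to 20.6%, lie below the line, and the other 4 mice above it.

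*S100a9* stood in a narrower range of ratios to a list of genes of late neutrophil stages than *S100a8* did. The list of 16 genes held granule genes and others, such as *Ly6g* of the neutrophil surface. Its summed level was 2546, 3749 and 3385 CPM in the wild type mice and 5106, 2689, 9613 and 3643 CPM in the knockout mice. The lowest knockout value was in knockout 2 and the highest in knockout 3, as for *S100a9*. *Ngp* and *Camp* made up most of the sum (860 and 682 CPM in wild type 1, 3694 and 2860 CPM in knockout 3). They are also the genes nearest to *S100a9* in profile below, so these comparisons overlap. The log2 ratio of *S100a9* to this sum stayed between -0.080 and 0.27 in all 7 mice. That of *S100a8* ran from -0.94 in wild type 2 to 0.60 in knockout 2. The genotype means of these ratios differed by 0.11 for *S100a9*, between its SDs of 0.089 in wild type and 0.14 in knockout, and by 0.19 for *S100a8*, below its SDs of 0.81 and 0.43. All 16 genes had a positive log2 fold change, with a median of 0.61, and 0 of 16 passed the threshold in edgeR's quasi-likelihood test. Much of this rested on knockout 3. Without it 12 of the 16 were above 0 and 4 below, the median was 0.19, and the sums of the other knockouts, 2689 to 5106 CPM, overlapped those of wild type. *Ngp* was at 3694 CPM in knockout 3 and at 815 to 1795 CPM in the other knockouts, and its log2 fold change went from 0.78 to 0.24 without it. The 2 with the smallest p were *Wfdc21* (0.74 ± 0.17, adjusted p = 0.544) and *Mcemp1* (0.78 ± 0.26, adjusted p = 0.999) in edgeR's quasi-likelihood test. Without knockout 3 their log2 fold changes were 0.61 and 0.54. In bulk RNA, more cells of a type and more RNA per cell cannot be told apart.

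*S100a4*, which binds non-muscle myosin, gave the smallest p of the family. It was at 253, 307 and 265 CPM in the wild type mice and at 474, 341, 580.2 and 355 CPM in the knockout mice. All 4 knockout mice were above all 3 wild type mice, with the narrowest margin between wild type 2 and knockout 2. The means were 274.8 ± 28.4 CPM (SD, n = 3) and 437.5 ± 112.5 CPM (SD, n = 4). The log2 fold change was 0.67 ± 0.17 (SE), at percentile 97.7 of all genes, with an unadjusted p of 0.00114 and an adjusted p of 0.8 in edgeR's quasi-likelihood test. By unadjusted p it was at rank 16 of the genes tested. Without knockout 3 the log2 fold change was 0.51.

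*S100a6*, whose protein binds the ubiquitin ligase adaptor CACYBP, followed *S100a4* closely. Its levels were 259, 305 and 275 CPM in wild type and 410.0, 341, 527 and 302 CPM in knockout. Knockout 4 lay within the wild type range and the other 3 knockout mice above it. The means were 279.8 ± 23.1 CPM (SD, n = 3) and 395 ± 98.9 CPM (SD, n = 4). The log2 fold change was 0.50 ± 0.17 (SE) with an unadjusted p of 0.00795 and an adjusted p of 0.999 in edgeR's quasi-likelihood test, and it was 0.33 without knockout 3.

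*S100a10*, the annexin A2 partner, was at 188, 215 and 177 CPM in wild type and 235, 211, 219 and 212 CPM in knockout. It was the steadiest member across the mice, with an SD of 0.138 on the log2(CPM + 1) scale, and knockout 2 and 4 were below wild type 2. Its log2 fold change was 0.18 ± 0.13 (SE, adjusted p = 0.999, edgeR's quasi-likelihood test), and again 0.18 without knockout 3. *S100a11*, which binds annexin A1, was at 137, 129 and 128 CPM in wild type and 140.1, 150.0, 202 and 149 CPM in knockout. All 4 knockout mice were above the wild type mice, 3 of them by little and knockout 3 by more. The log2 fold change was 0.29 ± 0.15 (SE, adjusted p = 0.999, edgeR's quasi-likelihood test), and 0.16 without knockout 3.

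*S100a13* was at 80.5, 74.2 and 73.3 CPM in wild type and 77.9, 90.2, 97.7 and 64.3 CPM in knockout, so the lowest and the highest mouse were both knockouts. Its log2 fold change was 0.12 ± 0.16 (SE, adjusted p = 0.999, edgeR's quasi-likelihood test), and 0.028 without knockout 3. Its head-to-head neighbour *S100a1*, the least abundant member, was at 61.9, 27.4 and 42.2 CPM in wild type and 56.7, 53.6, 44.8 and 50.6 CPM in knockout. Here the wild type mice were the more scattered, and wild type 1 was the highest of all 7. The log2 fold change of *S100a1* was 0.22 ± 0.22 (SE, adjusted p = 0.999, edgeR's quasi-likelihood test) and turned to -0.020 without wild type 2, in which the gene had 98 reads, and was 0.28 without knockout 3.

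The members differed in which mice set their level. Knockout 3 was the highest of the 7 mice for 6 of 8 members, and knockout 1 was among the top 2 for 6. To compare patterns, each gene's log2(CPM + 1) values were centred on their mean over the 7 mice, and the distance between a pair of genes was the root mean square difference of these profiles. *S100a4* and *S100a6* were the closest members (0.111), ahead of *S100a11* and *S100a13* (0.162). *S100a8* and *S100a9* were 0.486 apart, and *S100a9* was nearer to *S100a4* (0.258). The most distant were *S100a1* and *S100a9* (0.693). Over the 6 mice without knockout 3, *S100a4* and *S100a6* were still the closest (0.116), *S100a8* and *S100a9* were 0.487 apart, and the most distant were *S100a8* and *S100a13* (0.557).

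Among 3797 genes outside the family with a mean of at least 50 CPM over the 7 mice, the nearest to *S100a9* were *Camp* (0.135), *Ngp* (0.162) and *Ly6g* (0.185), where the median distance of all candidates was 0.584. *Camp* and *Ngp* encode secondary granule proteins of neutrophils, and *Ly6g* a neutrophil surface protein. Nearest to *S100a8* were *Wfdc21* (0.228), *Mxd1* (0.287) and *Rflnb* (0.3), with a median of 0.602. *Cfp*, the gene of the complement factor properdin, was the nearest gene both to *S100a6* (0.084) and to *S100a4* (0.158), whose medians were 0.363 and 0.425. Next came *Sae1* (0.142) and *Eif4e3* (0.143) for *S100a6*, and *Pygl* (0.18) and *Gys1* (0.192) for *S100a4*. Over the 6 mice without knockout 3, *Camp* was again at rank 1 for *S100a9* (0.12, median 0.357) and *Ngp* at rank 4 (0.144), but *Ly6g* was at rank 31 (0.199). Over the same 6 mice *Wfdc21* was at rank 4 for *S100a8*, and *Mxd1* and *Rflnb* at ranks 17 and 8. *Cfp* was then at rank 6 for *S100a6* and rank 18 for *S100a4*, while *Sae1* and *Eif4e3* were at ranks 97 and 48 for *S100a6* and *Pygl* and *Gys1* at ranks 54 and 77 for *S100a4*. *Ly6g*, *Eif4e3*, *Gys1* and *Mxd1* averaged under 50 CPM in wild type (35.0, 42.7, 42.8 and 48.4 CPM) and over it in knockout, so they were among the candidates only through the knockout mice. These distances are descriptions over few mice.

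**Figure D5:**
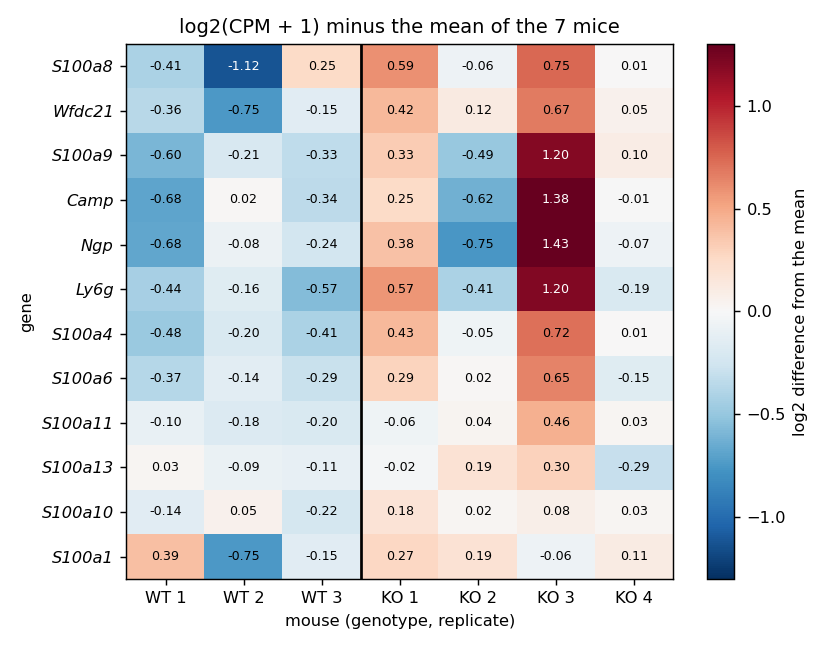
Colour and number give the log2(CPM + 1) of a gene (vertical axis) in a mouse (horizontal axis) minus its mean over the 7 mice, for the 8 members, the nearest gene to *S100a8* (*Wfdc21*) and the 3 nearest to *S100a9* (*Camp*, *Ngp* and *Ly6g*). *S100a9* and its 3 nearest genes share the deep red cell of knockout 3. Those 3 genes were picked for their likeness to *S100a9* over these 7 mice, so this sharing follows from the choice. *S100a8* is lowest in wild type 2, and *S100a1* is low in that mouse too.

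The marker lists set beside the members differed in sign and size, and 0 genes of any list passed the threshold in edgeR's quasi-likelihood test. For 11 tested monocyte genes, 8 log2 fold changes were above 0 and 3 below, with a median of 0.20, and the summed level of all 12 listed was 4299 to 4351 CPM in wild type and 4638 to 5668 CPM in knockout. For the 6 primary granule genes of earlier myeloid stages, 3 were above 0 and 3 below, with a median of -0.016, and their sums of 8293 to 10621 CPM and 7337 to 10237 CPM overlapped. The macrophage list lay on the other side, with 10 of 11 below 0, a median of -0.58 and sums of 431 to 489 CPM in wild type against 317 to 366 CPM in knockout. Stem and progenitor genes, which the isolated cells should express, were present in all libraries, with sums of 1214 to 1352 CPM and 1120 to 1325 CPM, 5 log2 fold changes above 0 and 7 below, and a median of -0.10. Without knockout 3 all 11 monocyte genes were above 0, with a median of 0.20. The primary granule list then had 2 above and 4 below (median -0.034), the macrophage list 2 above and 9 below (-0.63), and the stem and progenitor list 4 above and 8 below (-0.19). The part of these cell types in the members' levels was not tested.

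Partners and receptors of the family were read from a separate list. Of 18 listed, 15 had enough reads, of which 9 had log2 fold changes above 0 and 6 below, with a median of 0.095, and 0 passed the threshold in edgeR's quasi-likelihood test. Without knockout 3, 11 were above 0 and 4 below, with a median of 0.076. The smallest p was that of *Ahnak*, a scaffold bound by the complex of S100A10 and annexin A2. It was at 244, 247 and 256 CPM in wild type and at 384, 325, 338 and 261 CPM in knockout, without overlap, and its log2 fold change was 0.39 ± 0.14 (SE, adjusted p = 0.999, edgeR's quasi-likelihood test), and 0.38 without knockout 3. *Anxa2* itself was at 374 ± 77.5 CPM (SD, n = 3) and 451 ± 129.5 CPM (SD, n = 4), with overlap. Its highest value, 632 CPM, was that of knockout 3, and its log2 fold change was 0.27 with that mouse and 0.063 without it.

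Among the receptors, *Tlr4* averaged 16.5 ± 3.90 CPM (SD, n = 3) among wild type mice and 11.6 ± 3.41 CPM (SD, n = 4) among knockouts, a log2 fold change of -0.50 ± 0.29 (SE) with overlap, and of -0.61 without knockout 3. *Ager*, which encodes RAGE, was low, at 1.12 to 3.45 CPM in the 7 mice. *Cybb*, the catalytic subunit of the phagocyte NADPH oxidase, averaged 344 ± 83.7 CPM (SD, n = 3) among wild type mice and 401 ± 82.6 CPM (SD, n = 4) among knockouts, with overlap, and its log2 fold change of 0.22 was 0.076 without knockout 3. *Anxa11* is listed at 0 in all 7 libraries, and *Fgf1* and *Plg*, with 16 and 18 reads in all, were not tested.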

How the data were processed

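RNA (500 ng) of lin- marrow cells from 3 wild type and 4 knockout mice was made into QuantSeq 3′ end libraries by the study and sequenced as 75 bp single reads. The deposited values are counts of reads per gene, which the authors describe as aligned and quantified with STAR 2.4.2a on GRCm38 with Ensembl 84; the strand setting is not given in the sources used here. Each table ends in 5 tally entries that name no gene, written as htseq-count writes them, and these were left out; unassigned reads without a feature were 27.0 to 31.6% of all. Library totals were 3525665 to 5605158 reads on genes, so 3 reads equal 0.561 to 0.840 CPM.

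Counts were filtered with filterByExpr, scaled with TMM factors and tested with edgeR 4.0.16 (limma 3.58.1, R 4.3.3), glmQLFit with robust estimation and genotype as the only term, with Benjamini-Hochberg adjustment over all 11265 genes tested and the study's threshold of 0.25 (2 genes passed at both 0.25 and 0.05). CPM use the same factors, and profiles use log2(CPM + 1). The biological coefficient of variation was 21.3%. Labels call the samples biological replicates and give no litters or dates. Same-numbered samples differ in genotype and so in animal, and the numbers were not taken as pairs. Their deviations correlated at -0.025, -0.22 and -0.16, and those of unlike numbers at -0.119 to 0.218. These few values cannot show whether same-numbered mice shared a litter or date. No pair of libraries of 1 genotype agreed within sampling noise (chi-square per degree of freedom 7.82 to 49.5).

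Alternatives were DESeq2 1.42.0 (the study's own test), other scalings and filters, a replicate block and each mouse left out. The fit was tested on simulated data. Members, gene lists, named-gene rule and tests were chosen with earlier results of these data known. Named were all members, every other listed S100 gene, *Hdgfl2*, *Rn45s*, the 5 partners and at most 2 genes per marker list with the smallest p, and the 3 genes nearest in profile to each of 4 members; 1 of these partners is not reported here. *Xist*, *Ddx3y*, *Ager* and the untested partners were added with their values known. Gene positions are from GENCODE M21, which holds 97.6% of the symbols, and sequences from RefSeq.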

Additional observations from a re-analysis of the deposited data

Results flagged for a closer look

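In 1 of 11 quantities tested for a lone mouse within the 4 knockouts (8 levels and 3 ratios), a value stood apart from the rest by Dixon's criterion. *S100a11* was at 201.8 CPM in knockout 3, against 140.1 to 150.0 CPM in the other 3 knockout mice, a gap of 0.839 of the group's range where the critical value is 0.829. Chance passes about 1 in 20 such groups, or 0.55 of 11.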

How the results depend on the processing

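Of 19 alternatives, 15 left 0 of 8 members past the threshold, among them each mouse left out (0 to 0) and the replicate block (0, with the *S100a4* log2 fold change at 0.73). The numbers were not taken to pair the mice, and the block took the count over all genes from 2 to 1. *S100a4* alone passed with DESeq2 (1 member, adjusted p = 0.198), with edgeR's likelihood ratio test (1, adjusted p = 0.243) and with DESeq2 on genes with at least 10 reads in every library (1, adjusted p = 0.213, chosen after seeing the data). Without the filter on low counts 2 members passed in edgeR's quasi-likelihood test, *S100a4* (adjusted p = 0.0045) and *S100a6* (adjusted p = 0.234). Calls over all genes ranged from 1 to 41. The cause was not tested. Partners stayed at 0 in all 19.

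*S100a1* (0.22 in the report) ran from -0.020 without wild type 2 to 0.57 without wild type 1 and was -0.013 without the 2 libraries of highest *Rn45s* share (chosen after seeing the data); the other 7 members stayed above 0 in all 19, *S100a4* between 0.51 and 0.85. With each mouse left out, the log2 ratio of *S100a8* to *S100a9* differed between genotypes by -0.34 to 0.40, that of *S100a8* to late neutrophil genes by -0.27 to 0.49 and that of *S100a9* by 0.046 to 0.16. CPM with *Rn45s* reads left out, here also without TMM factors, are higher by construction. Means that moved by more than the SD between mice became 319.9 (*S100a4*), 326 (*S100a6*), 3692 (*S100a9*), 225 (*S100a10*), 153 (*S100a11*) and 88.5 (*S100a13*) in wild type. In knockout they became 248 (*S100a10*) and 58.4 (*S100a1*). The other member means moved by less than that SD.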

Other observations

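The other marker lists showed no call at the threshold in edgeR's quasi-likelihood test. All 9 tested genes of eosinophils, basophils and mast cells had log2 fold changes below 0, with a median of -0.38 and sums over the 10 listed of 2773 to 2913 CPM in wild type against 1912 to 2597 CPM in knockout, opposite in sign to the members, and without knockout 3 the median was -0.48. Of 9 erythroid genes 2 were above 0 and 7 below, of 6 megakaryocyte genes 4 above and 2 below, and of 12 lymphoid genes 5 above and 7 below. Without knockout 3 the lymphoid counts turned to 7 above and 4 below among 11 tested, while the erythroid (2 and 7) and megakaryocyte (4 and 2) counts were as before. The 4 hemoglobin genes of the erythroid list are listed at 0 in all 7 libraries.

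The ratio of *S100a10* to its partner *Anxa2* was 0.564, 0.463 and 0.544 in the wild type mice and 0.516, 0.579, 0.346 and 0.601 in the knockout mice, lowest in knockout 3.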
